A study of Mus musculus with 4 samples.

Results

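The Hox genes of clusters A to D were followed across 4 mRNA libraries of mouse mesenchymal stem cell lines, as 38 rows of a table of 21881 gene symbols. They were chosen by name as members of the 4 clusters, with earlier results of these data known. The cells were fibroblast-like cells of adult bone marrow from C57BL/6 mice, immortalised and grown as monoclonal lines. Every line carried the Dicer f/f genotype with Dicer intact, so all groups were wild type for Dicer function. Clone 6 and clone 12 each received a puromycin-selectable pMMP-puro retrovirus, either empty (vector, n = 2 libraries) or coding for Flag-HA-tagged NR6A1 (NR6A1, n = 2 libraries). Each line is the progeny of 1 cell, and the virus, not the cell's own promoter, drove NR6A1. The labels name no further cultures. A spread between libraries of a group thus mixes the 2 lines with their separate cultures and libraries.

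Hox genes encode homeodomain transcription factors that tell cells where along the body axis they lie. They sit in 4 clusters, and their order along the chromosome follows the order in which they are used from the hindbrain to the tail and from the shoulder or hip to the digits. Genes of the same number in different clusters are paralogs, copies of 1 ancestral gene. Fibroblasts and stromal cells of adult tissues keep a Hox pattern that records the body site they came from. NR6A1, also called GCNF, is a nuclear receptor without a known ligand that mostly represses its targets. In the embryonic trunk it is known to shape the timing of Hox use. The series title places Nr6a1 and a mid-gestation program under the let-7 microRNAs in adult fibroblasts, and the libraries ask what NR6A1 changes when it is raised in such cells.

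Values are FPKM, fragments per length of transcript and per mapped fragments, so levels of different genes can be set side by side. Where 2 values are given for a virus, clone 6 comes first and clone 12 second. The depth inferred from the steps between low values ran from 20800000 to 24350000 mapped reads per library. A transcript of 2000 bases at 1 FPKM then drew 36.6 to 43.3 reads, so 1 read is worth 0.0231 to 0.0273 FPKM. Nr6a1 itself, which checks the labels, read 4.18 and 2.80 FPKM with vector but 783 and 598 FPKM with NR6A1. Of 14 mesenchymal stem cell and fibroblast markers, 13 were at 1 FPKM or more in every library, and the other, Thy1, was at 0.0297 FPKM or less. These RNA totals are of whole cultures, so fewer cells of a type and less RNA per cell cannot be told apart. The 6 endothelial markers stayed below 1 FPKM in every library. Of 9 blood markers in the table, Cd14, a monocyte marker, was at 5.47 to 8.35 FPKM and the others stayed below 1 FPKM, with Ptprc, which marks leukocytes, at 0.0234 FPKM or less.

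Clusters A and C were on and clusters B and D were at or near 0. All 76 values of the 19 genes of clusters A and C were above 0, from 0.283 FPKM (Hoxc8) to 36.7 FPKM (Hoxc10). Of the 76 values of the 19 genes of clusters B and D, 43 were listed at 0 and the highest was 0.369 FPKM. Summed over the genes listed, cluster A stood at 107 and 79.7 FPKM with vector against 104 and 77.3 FPKM with NR6A1. Cluster C summed to 111 and 93.7 FPKM with vector and to 98.6 and 85.4 FPKM with NR6A1. Cluster B summed to 0.268 to 0.678 FPKM and cluster D to 0.0232 to 0.0822 FPKM over the 4 libraries. The sums of A and C lay above those of B and D in every library. Single genes did meet: in the NR6A1 library of clone 6, Hoxb13 was at 0.308 FPKM and Hoxc8 at 0.283 FPKM. The cluster sums of A and C were also lower in clone 12 than in clone 6 with each virus.

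**Figure D1:**
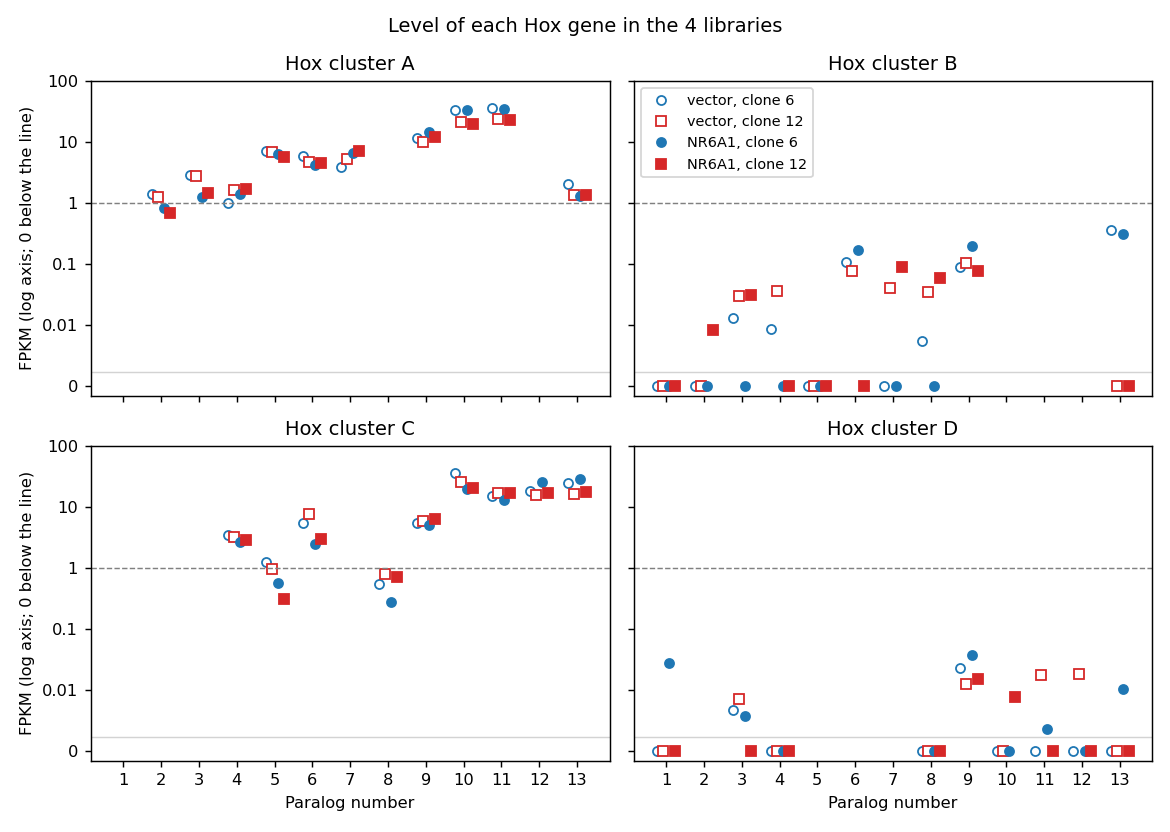
FPKM of each Hox gene (y axis, log scale, with values listed at 0 drawn below the grey line) by paralog number (x axis) in 1 panel per cluster; open symbols are vector, filled symbols NR6A1, circles clone 6 and squares clone 12, 1 library each, and the dashed line is 1 FPKM. In clusters A and C the highest levels lie among paralogs 9 to 13, where Hoxa13 and Hoxc9 are lower. The rise is not even, since Hoxc5 and Hoxc8 lie below Hoxc4. Every gene of clusters B and D lies below 1 FPKM.

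Within clusters A and C the genes of high paralog number, which pattern the lower trunk and the limbs, held most of the signal. Paralogs 9 to 13 made up 71.4% to 80.2% of the FPKM of cluster A and 86.3% to 93.9% of that of cluster C. Hoxa11, needed for the forearm, shank and uterus, had the highest mean, at 36.3 and 24.3 FPKM with vector against 34.2 and 22.9 FPKM with NR6A1. Hoxa10, which specifies the lumbar region and the uterus, came next at 34.0 and 21.3 FPKM with vector against 33.1 and 19.9 FPKM with NR6A1. Hoxc10, its paralog, known in lumbar motor neurons, was at 36.7 and 25.3 FPKM with vector against 20.2 and 20.7 FPKM with NR6A1. The ranges of these 3 genes over the libraries overlapped, so their order is not fixed by these data. Hoxc13, which acts in hair and nails, ran from 16.4 to 28.4 FPKM, Hoxc12 from 15.8 to 25.8 FPKM and Hoxc11 from 13.1 to 17.3 FPKM, also with overlap between them. Hoxa9, a regulator of blood progenitors in the marrow and a leukaemia gene, ran from 9.99 to 14.6 FPKM. Its range reached above the lowest value of Hoxc11 and stayed below that of Hoxc12.

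The genes of lower paralog number had lower levels, as did Hoxc9 and Hoxa13 among those of high number. Hoxa5, needed for the lung and the shoulder skeleton, ran from 5.76 to 7.17 FPKM over the libraries, Hoxa6 from 4.14 to 5.97, Hoxa7 from 3.94 to 7.02, Hoxc9 from 5.11 to 6.34 and Hoxc6 from 2.48 to 7.81 FPKM. Hoxc4 (2.71 to 3.45 FPKM), Hoxa3 (1.27 to 2.90) and Hoxa4 (1.02 to 1.68) were lower still. Hoxa2, a selector of the second pharyngeal arch, ran from 0.690 to 1.39 FPKM. Hoxc5 (0.308 to 1.25 FPKM) and Hoxc8 (0.283 to 0.802 FPKM), 2 genes of the middle of cluster C, were below their neighbours Hoxc4 and Hoxc9. The mean over all genes tested had a median of 17.5 FPKM, which only the 5 highest Hox genes exceeded. For annotation, cluster A lies on chromosome 6, B on 11, C on 15 and D on 2.

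Paralogs of the same number differed in how close their levels were. Hoxa13, which builds the digits and the genital tubercle, was at 2.09 and 1.37 FPKM with vector against 1.32 and 1.36 FPKM with NR6A1. Its level was 0.0465 to 0.0849 times that of Hoxc13 in the same library. Hoxa10 and Hoxc10 lay close together (ratio 0.841 to 1.64), as did Hoxa6 and Hoxc6 (0.610 to 1.67). Hoxa5 exceeded Hoxc5 by 5.74 to 18.7 times, while Hoxa4 was at 0.296 to 0.587 times the level of Hoxc4. Hoxa9 was at 1.66 to 2.87 times the level of Hoxc9, and Hoxa11 at 1.33 to 2.61 times that of Hoxc11. In each of these 7 pairs the range is over the 4 libraries.

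Clusters B and D gave few reads. Hoxb1, Hoxb5, Hoxd4 and Hoxd8 were listed at 0 in every library, and every gene of cluster D was below 0.1 FPKM. Its highest value was 0.0373 FPKM for Hoxd9, below what 3 reads give on a transcript of 2000 bases. In cluster B, Hoxb9 ran from 0.0779 to 0.201 FPKM and Hoxb6 from 0 to 0.169 FPKM. Hoxb13, an AbdB-class gene of the tail and prostate, was at 0.369 FPKM in the vector library and 0.308 FPKM in the NR6A1 library of clone 6, and listed at 0 in both libraries of clone 12. At the depth given above, 3 reads on a transcript of 2000 bases stand for 0.0692 to 0.0819 FPKM. Lower levels cannot be told from 0, and none of the 19 genes entered the test. In a fit without a filter on low values, Hoxb13 differed between clones with an unadjusted p of 0.00738 and a limma adjusted p of 0.189.

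Reads of Hox genes can be hard to tell apart. In a later annotation (GENCODE M21), the models of 22 of the 38 genes overlap another gene model, 15 on the same strand and 13 on the opposite one. Hoxa3 spans Hoxa4, Hoxa5 and Hoxa6, and Hoxc5 spans Hoxc6, Hoxc8, Hoxc9 and Hoxc10 there. Hoxa11 lies opposite to its antisense RNA, listed in the table as Hoxa11as, at 22.1 and 19.3 FPKM with vector against 17.9 and 14.8 FPKM with NR6A1. The strand setting is not given in the sources used here, so reads of Hoxa11 and of Hoxa11as cannot be told apart in these values.

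The clusters also hold microRNA genes, shown here because they share the loci and, for miR-196, part of the seed of let-7. Capitals mark bases 2 to 8, the seed, in the RefSeq mature sequences, 5′ to 3′.
miR-196a-5p: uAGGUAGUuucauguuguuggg
miR-196b-5p: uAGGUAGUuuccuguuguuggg
miR-10a-5p: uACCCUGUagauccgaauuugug
miR-10b-5p: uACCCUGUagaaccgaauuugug
miR-615-3p: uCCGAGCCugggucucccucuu
let-7a-5p: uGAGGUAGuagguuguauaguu
miR-196a and miR-196b share their seed and differ at 1 base, as do miR-10a and miR-10b. The 7 bases of the miR-196 seed recur in let-7a shifted by 1 base, from position 3 in place of 2. miR-196 is known to act on transcripts of middle Hox genes such as Hoxc8 and Hoxb8, and miR-10 lies beside the paralogs of number 4. The hairpin gene Mir196b, inside the Hoxa9 model of the later annotation, was at 68.8 and 79.2 FPKM in the vector and NR6A1 libraries of clone 6 and at 0 and 27.2 FPKM in those of clone 12. Mir10a, Mir10b, Mir196a-1, Mir196a-2 and Mir615 were listed at 0 in every library. A library of polyadenylated RNA does not measure mature microRNAs, and FPKM of so short a gene rests on few reads.

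The main comparison asked which Hox genes differ when NR6A1 is raised. No Hox gene passed the threshold: of the 17 members with a mean of at least 1 FPKM, all in clusters A and C, 0 had a limma adjusted p under 0.05, where 0.0353% of all 11346 genes tested did. Hoxc6 and Hoxa3 had the lowest values relative to vector and Hoxa7 the highest. At an unadjusted p under 0.05 stood 5 of the 17, 3 lower (Hoxc6, Hoxa3, Hoxc10) and 2 higher (Hoxa7, Hoxa9), beside 8.48% of all genes (5.01% lower, 3.47% higher). Lower in both clones were 11 of the 17, beside 29.4% of all genes, and higher in both were 5, beside 28.9%. By at least 1.5-fold of FPKM + 1 in both clones, 2 were lower (1.02% of all genes) and 0 higher (0.432%). Hoxa2 missed this cut, though it was at 0.599 (clone 6) and 0.546 (clone 12) times its vector FPKM. The median log2 change of the 17 was -0.11, -0.13 in clone 6 and -0.07 in clone 12, and that of all genes tested was 0.00098. Changes are differences of log2(FPKM + 1), which understate the change of low genes.

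Hoxc6, known in the brachial spinal cord and thoracic skeleton, stood at 5.55 and 7.81 FPKM with vector and at 2.48 and 3.01 FPKM with NR6A1. Both NR6A1 libraries lay below both vector libraries. The groups did not overlap, in one direction or the other, for 10 of the 17 members, beside 20.4% of all genes tested. Its mean was 6.68 ± 1.60 FPKM with vector and 2.74 ± 0.373 FPKM with NR6A1 (SD, n = 2). The log2 change was -0.91 in clone 6 and -1.14 in clone 12, on average -1.02 ± 0.12 (SE, limma unadjusted p = 0.00128, adjusted p = 0.223). That p ranked 65 of 11346. The change kept its sign in each of the 13 alternative fits that tested it, from -1.24 to -0.59, with an adjusted p of 0.0589 at the lowest, without short RNA genes.

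Hoxa3, which patterns the third pharyngeal arch with the thymus and parathyroid, was at 2.90 and 2.76 FPKM with vector against 1.27 and 1.47 FPKM with NR6A1. The vector libraries differed from each other by less than either did from the NR6A1 libraries. The means were 2.83 ± 0.101 and 1.37 ± 0.142 FPKM (SD, n = 2), and the log2 change was -0.69 ± 0.15 (SE, unadjusted p = 0.0116, limma adjusted p = 0.422). The Hoxa3 model spans Hoxa4, Hoxa5 and Hoxa6 in the later annotation, so these genes may share reads. The part of this in the value of Hoxa3 was not tested. Hoxa2, its neighbour, was at 1.39 and 1.26 FPKM with vector against 0.830 and 0.690 FPKM with NR6A1, without overlap. The log2 change of Hoxa2 was -0.38 in clone 6 and -0.42 in clone 12 (adjusted p = 0.644, limma).

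Hoxc5, the neighbour of Hoxc6 and below the filter, was at 1.25 and 0.963 FPKM with vector against 0.579 and 0.308 FPKM with NR6A1. Here too both NR6A1 libraries lay below both vector libraries, at 0.464 and 0.320 times the level of the same clone with vector. For Hoxc6 those ratios were 0.447 and 0.385, and for Hoxa3 0.439 and 0.534. Since the Hoxc5 model spans Hoxc6 in the later annotation, the 2 genes may share reads, and the part of this in the value of Hoxc5 was not tested. In a fit without a filter, Hoxc5 had a log2 change of -0.55 ± 0.03 (SE) with an unadjusted p of 0.00803 and a limma adjusted p of 0.639. Hoxc8, which lies on the other side of Hoxc6, was at 0.549 and 0.802 FPKM with vector against 0.283 and 0.718 FPKM with NR6A1, with overlapping groups. Hoxc4 was at 3.45 and 3.27 FPKM with vector against 2.71 and 2.87 FPKM with NR6A1, a log2 change of -0.20 ± 0.13 (SE, limma adjusted p = 0.677). Low values do not run unbroken along the cluster: Hoxc9, between Hoxc8 and Hoxc10, was at 5.50 and 6.02 FPKM with vector against 5.11 and 6.34 FPKM with NR6A1.

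**Figure D2:**
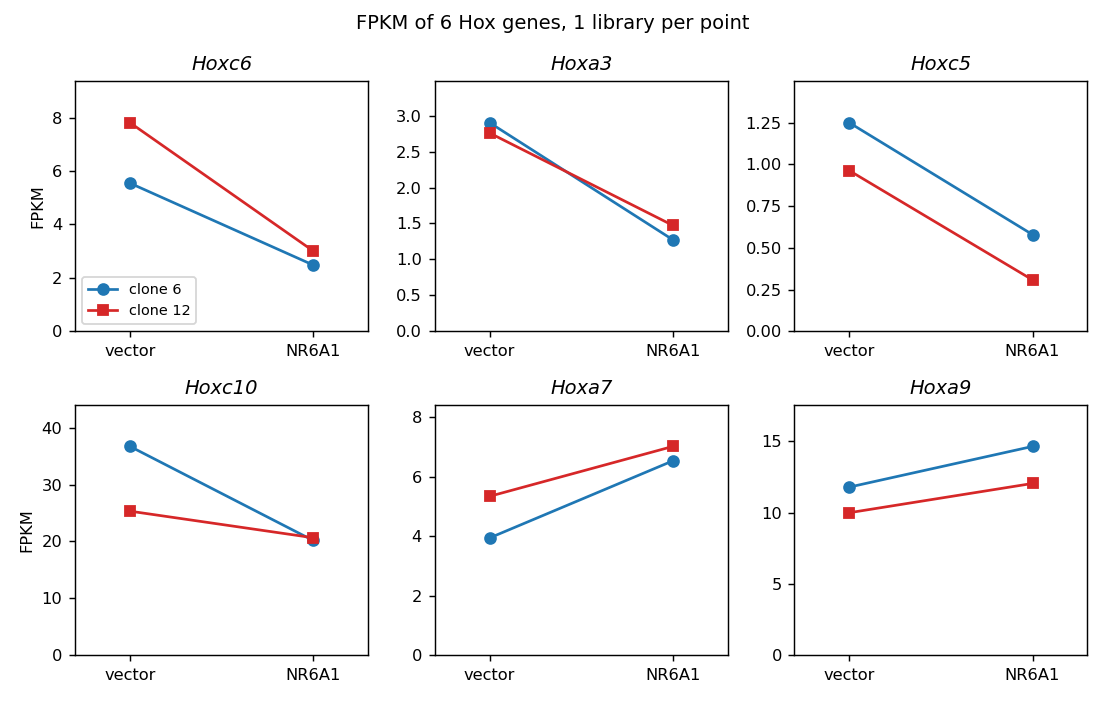
FPKM (y axis, linear from 0, a different range in each panel) with vector and with NR6A1 (x axis) for 6 Hox genes; each point is 1 library, and a line joins the libraries of the same clone (blue circles clone 6, red squares clone 12). The lines of Hoxc6, Hoxa3 and Hoxc5 run down in both clones by similar shares, that of Hoxc10 is steeper in clone 6, and those of Hoxa7 and Hoxa9 run up.

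Hoxa7 and Hoxa9 stood on the other side. Hoxa7, a gene of the thoracic region, was at 3.94 and 5.34 FPKM with vector against 6.53 and 7.02 FPKM with NR6A1, without overlap, a log2 change of 0.47 ± 0.12 (SE, unadjusted p = 0.0179, limma adjusted p = 0.475). Hoxa9 was at 11.8 and 9.99 FPKM with vector against 14.6 and 12.0 FPKM with NR6A1, a log2 change of 0.27 ± 0.08 (SE, unadjusted p = 0.0298, limma adjusted p = 0.548). The lower NR6A1 library exceeded the higher vector library by a small margin. Between Hoxa3 and Hoxa7 on the chromosome lies Hoxa6, at 5.97 and 4.77 FPKM with vector against 4.14 and 4.50 FPKM with NR6A1. The ratio of Hoxa7 to Hoxa6 was 0.660 and 1.12 with vector and 1.58 and 1.56 with NR6A1, so Hoxa7 lay below Hoxa6 in 1 library, clone 6 with vector. These are description, since the pair was chosen after its values were seen.

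Hoxc10 had the lower values with NR6A1 in each clone, with a larger gap in clone 6. It was at 36.7 and 25.3 FPKM with vector against 20.2 and 20.7 FPKM with NR6A1, and the vector library of clone 6 stood above the other 3. The log2 change was -0.83 in clone 6 and -0.28 in clone 12, on average -0.56 ± 0.16 (SE, unadjusted p = 0.0248, limma adjusted p = 0.521), and the difference between clones was not tested, since 4 libraries leave no degree of freedom for it. Hoxa6 and Hoxa13 had the same layout, with log2 changes of -0.44 and -0.41 in clone 6 against -0.07 and -0.01 in clone 12. In the same vector library of clone 6, 4 adipocyte markers summed to 326 FPKM, against 100 to 161 FPKM in the other libraries, mostly through Fabp4, and the keratin Krt14 was at 12.9 FPKM against 1.5 FPKM or less. Of these 4 adipocyte markers, 2 (Fabp4 and Pparg) reached 1 FPKM. Their part in the values of these Hox genes was not tested.

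Of the remaining tested members, Hoxc12 was at 18.2 and 15.8 FPKM with vector against 25.8 and 16.9 FPKM with NR6A1, a log2 change of 0.29 ± 0.12 (SE, limma adjusted p = 0.637), with overlap. Hoxc13 had a log2 change of 0.14, Hoxa4 of 0.13, Hoxa5 of -0.18, Hoxc11 of -0.11, Hoxa11 of -0.08, Hoxa10 of -0.06 and Hoxc9 of -0.01, none with an unadjusted p under 0.05 by limma. The most abundant A genes, Hoxa10 and Hoxa11, were at 0.935 to 0.975 times their vector level in each clone. By paralog number, the 2 tested members of numbers 2 and 3 had a median change of -0.55, the 6 of numbers 4 to 8 of -0.19 and the 9 of numbers 9 to 13 of -0.06. These medians describe genes that passed the filter and were not tested against each other.

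**Figure D3:**
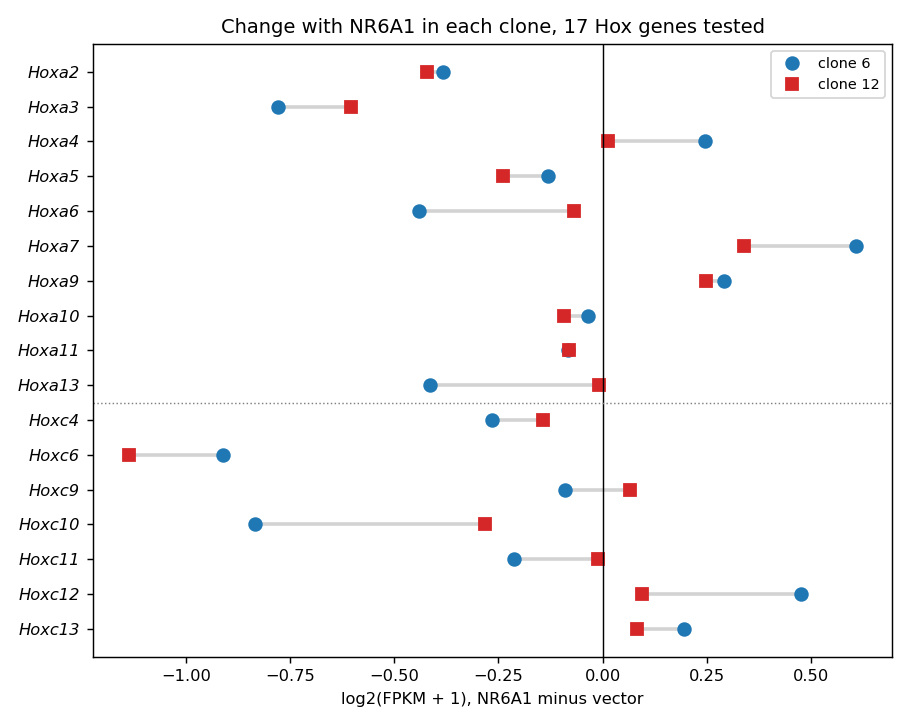
Difference of log2(FPKM + 1) between NR6A1 and vector (x axis) in clone 6 (blue circles) and clone 12 (red squares) for the 17 Hox genes tested (y axis), cluster A above the dotted line and cluster C below; a grey bar joins the 2 clones. Hoxc6 lies at -0.91 and -1.14 and Hoxa7 at 0.61 and 0.34; Hoxc9 is the 1 gene whose points lie on different sides of 0.

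Promoters are shown for Hoxa3 and Hoxa2, which had low values with NR6A1, for Hoxa7, which had high ones, and for Hoxa5 and Hoxc4, the 2 promoters of these clusters with an AGGTCA half-site. RefSeq windows (build GRCm38.p6, 300 bases each, mostly before an annotated start) were found for 22 of the 38 genes, 24 windows in all; Hoxc6, Hoxc5 and Hoxc10 are not among them. NR6A1 is known to bind AGGTCA repeated directly without a spacer, and the extended half-site TCAAGGTCA. Capitals mark AGGTCA, or TGATTGAT, the site of Hox with its partner Pbx, on either strand. AGGTCA is contained in both NR6A1 motifs. The Hoxa3 window lies between those of Hoxa6 and Hoxa7, upstream of the Hoxa5 and Hoxa6 windows.
Hoxa3 promoter (chr6:52213018-52213317, minus strand): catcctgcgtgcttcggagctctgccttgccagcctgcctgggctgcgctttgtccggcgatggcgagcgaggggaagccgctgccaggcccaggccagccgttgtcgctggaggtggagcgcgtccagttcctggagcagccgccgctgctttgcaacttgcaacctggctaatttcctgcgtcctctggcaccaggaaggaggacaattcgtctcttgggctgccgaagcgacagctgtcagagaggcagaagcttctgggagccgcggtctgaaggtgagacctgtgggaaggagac
Hoxa2 promoter (chr6:52164782-52165081, minus strand): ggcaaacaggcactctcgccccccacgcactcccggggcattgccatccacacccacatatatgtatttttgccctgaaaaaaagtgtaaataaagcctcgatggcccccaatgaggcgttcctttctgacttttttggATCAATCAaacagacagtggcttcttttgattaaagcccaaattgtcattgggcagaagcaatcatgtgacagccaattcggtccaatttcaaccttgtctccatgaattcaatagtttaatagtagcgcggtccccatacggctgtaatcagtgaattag
Hoxa7 promoter (chr6:52218524-52218823, minus strand): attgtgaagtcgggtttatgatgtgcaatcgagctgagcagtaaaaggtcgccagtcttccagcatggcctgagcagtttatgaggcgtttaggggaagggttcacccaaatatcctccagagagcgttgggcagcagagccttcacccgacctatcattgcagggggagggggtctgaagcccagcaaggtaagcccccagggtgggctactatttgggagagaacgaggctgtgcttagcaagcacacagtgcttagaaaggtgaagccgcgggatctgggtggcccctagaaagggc
Hoxa5 promoter (chr6:52204538-52204837, minus strand): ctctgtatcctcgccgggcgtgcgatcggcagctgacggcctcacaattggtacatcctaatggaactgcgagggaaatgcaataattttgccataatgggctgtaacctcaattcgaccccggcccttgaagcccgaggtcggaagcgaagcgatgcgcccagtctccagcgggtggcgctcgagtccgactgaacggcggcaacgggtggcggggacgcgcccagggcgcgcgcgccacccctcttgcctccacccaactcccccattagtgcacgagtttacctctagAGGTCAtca
Hoxc4 promoter (chr15:103034145-103034444, plus strand): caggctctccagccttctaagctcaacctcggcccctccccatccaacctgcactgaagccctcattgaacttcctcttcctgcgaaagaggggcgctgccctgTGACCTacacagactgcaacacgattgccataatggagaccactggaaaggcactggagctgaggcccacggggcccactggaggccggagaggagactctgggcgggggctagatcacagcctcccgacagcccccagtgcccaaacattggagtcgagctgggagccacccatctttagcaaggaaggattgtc
The repeat was in 0 of the 24 Hox windows and in 2 of all 32851 windows, and TCAAGGTCA was in 0 and in 0.423%. AGGTCA was in 7 of the 24 (Hoxa5, Hoxb4, Hoxc4, Hoxd3, Hoxd4, Hoxd8, Hoxd10) and in 16.3% of all windows. TGATTGAT was in 2 of the 24 (Hoxa2, Hoxd11) and in 0.746% of all. Of 3 further motifs searched on both strands, TAATTA was in 2 of the 24 (5.29% of all), CCAAT in 15 (37.4%) and TATAAA in 4 (13.6%). No match says only that these letters are not in these windows. The windows of cluster D had a median GC content of 58.5% (10 windows) and those of cluster A 56.5% (10 windows), beside 52.7% over all windows.

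The second comparison the design holds is between the lines. Of the 17 Hox genes tested, 3 were lower in clone 12 than in clone 6 at a limma adjusted p under 0.05, namely Hoxa10, Hoxa11 and Hoxc13, and 0 were higher. Of all genes tested, 21.9% passed in either direction, 10.5% lower and 11.5% higher in clone 12, so the share of Hox genes called was near the background. Lower with both viruses were 7 of the 17, beside 35.9% of all genes, and higher with both 5, beside 43.9%. The groups of the 2 clones did not overlap for 7 of the 17, beside 68% of all genes. At an unadjusted p under 0.05 stood 6 of the 17, beside 41.1% of all genes tested.

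The 2 libraries of a clone are the vector and the NR6A1 library of 1 line. Their SD therefore includes the change with NR6A1 and measures no spread between lines. Hoxa10 averaged 33.5 ± 0.591 FPKM in clone 6 and 20.6 ± 0.974 FPKM in clone 12 (SD, n = 2), a log2 difference of -0.68 ± 0.07 (SE, limma adjusted p = 0.0204). For Hoxa11 the means were 35.3 ± 1.45 and 23.6 ± 0.980 FPKM (SD, n = 2), a log2 difference of -0.56 ± 0.07 (SE, limma adjusted p = 0.0237). Hoxc13 was at 26.6 ± 2.66 and 16.9 ± 0.722 FPKM (SD, n = 2), a log2 difference of -0.62 ± 0.08 (SE, limma adjusted p = 0.0237). In all 3 genes both libraries of clone 12 lay below both libraries of clone 6. In fits that drop any 1 of the 4 libraries and hold no block, the differences ran from -0.72 to -0.52 and the 3 calls were lost (adjusted p 0.0515 to 0.224), and they were also lost without a filter on low values (adjusted p = 0.189).

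Markers of cell types also differed between the clones. Of the 13 mesenchymal stem cell and fibroblast markers tested, 3 were lower in clone 12 (Col1a1, Col3a1, Pdgfra) and 3 higher (Ly6a, Cd44, Vcam1) by limma, with log2 differences of -1.30 for Col1a1 (adjusted p = 0.0225) and 3.80 for Ly6a (adjusted p = 0.00362). The muscle genes Des (-0.78, adjusted p = 0.0353) and Acta1 (-0.50, adjusted p = 0.0340), the cartilage collagen Col2a1 (-1.84, adjusted p = 0.0241) and the adipocyte gene Fabp4 (-1.32, adjusted p = 0.0437) were lower in clone 12. These were both tested muscle markers of 5 listed, 1 of 2 tested cartilage markers of 4 and 1 of 2 tested adipocyte markers of 4. Of all genes tested, 21.9% passed between clones, 10.5% lower and 11.5% higher in clone 12. The summed muscle markers were at 29.0 and 36.8 FPKM in clone 6 and 20.5 and 23.5 FPKM in clone 12 (vector and NR6A1), and Myod1, which defines muscle precursors, was listed at 0 throughout. The summed cartilage markers overlapped between clones (6.57 and 9.14 against 6.64 and 6.10 FPKM), and the summed adipocyte markers did not (326 and 161 against 109 and 100 FPKM). Their part in the clone differences of Hoxa10, Hoxa11 and Hoxc13 was not tested.

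The other posterior genes went both ways, and none passed the threshold. Hoxc11 was at 15.3 and 13.1 FPKM in clone 6 and 17.3 and 17.2 FPKM in clone 12 (vector and NR6A1), a log2 difference of 0.26 ± 0.09 (SE, limma adjusted p = 0.117). Hoxc12 had a log2 difference of -0.39 ± 0.12 (SE, limma adjusted p = 0.0968) and Hoxa9 of -0.24 ± 0.08 (SE, adjusted p = 0.109), each lower in clone 12 with both viruses. Of the 9 tested members of numbers 9 to 13, 5 were lower in clone 12 with both viruses and 2, Hoxc9 and Hoxc11, higher with both. Among the middle genes, Hoxc6 was higher in clone 12 with each virus, 7.81 against 5.55 FPKM and 3.01 against 2.48 FPKM (log2 difference 0.32 ± 0.12, SE, limma adjusted p = 0.143). Hoxa3, Hoxa5, Hoxa6, Hoxa2 and Hoxc4 had log2 differences between -0.10 and 0.03. Over the 17 genes the median difference was -0.09, and over all genes tested 0.04.

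**Figure D4:**
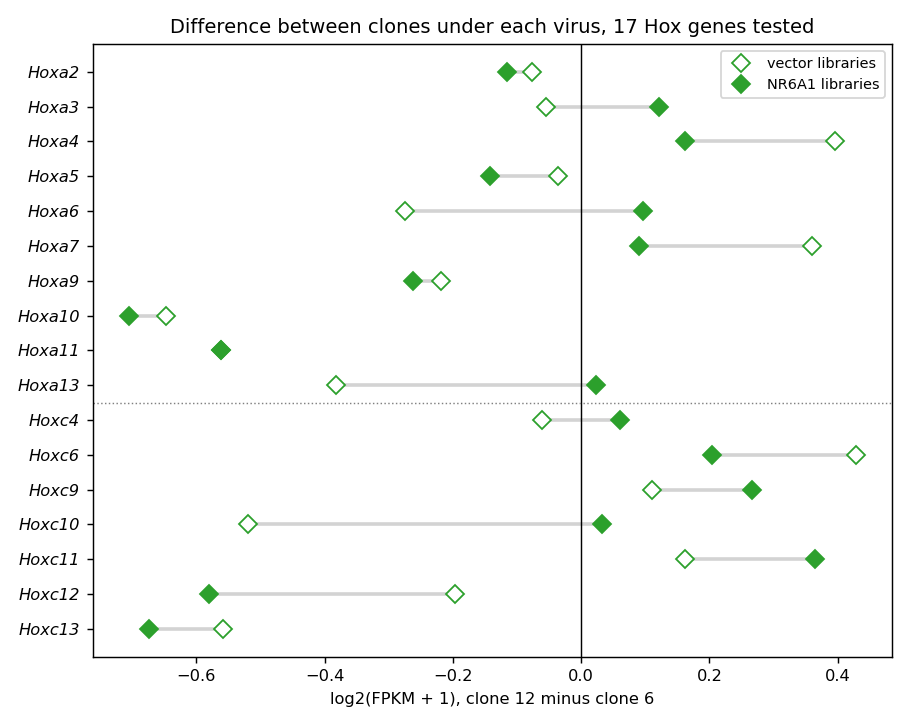
Difference of log2(FPKM + 1) between clone 12 and clone 6 (x axis) in the vector libraries (open diamonds) and in the NR6A1 libraries (filled diamonds) for the 17 Hox genes tested (y axis), cluster A above the dotted line and cluster C below. Hoxa10, Hoxa11 and Hoxc13 lie at -0.56 or lower with both viruses (the points of Hoxa11 coincide), while Hoxc10 lies at -0.52 with vector and 0.03 with NR6A1.

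Hox proteins bind DNA together with cofactors of the TALE class, the Meis, Pbx and Pknox (Prep) proteins. All 9 were tested, 0 passed the threshold for NR6A1 (2 at an unadjusted p under 0.05 by limma, beside 8.48% of all genes) and their median log2 change was 0.01. Abundant members were Pbx2 (18.5 and 15.7 FPKM with vector, 20.3 and 14.6 FPKM with NR6A1), Pbx3 (11.3 and 8.43 against 10.8 and 8.72 FPKM) and Pknox2 (2.16 and 11.2 against 8.73 and 20.8 FPKM). Pknox2 had the highest change of the list, 1.23 ± 0.22 (SE, limma adjusted p = 0.325), and Pknox1 the lowest, -0.50 ± 0.09 (SE, limma adjusted p = 0.325). Between clones, Pknox2 was higher in clone 12 (log2 difference 1.55 ± 0.22, SE, limma adjusted p = 0.0266) and Meis2 lower (-0.53 ± 0.11, adjusted p = 0.0478), 2 of 9 beside 21.9% of all genes.

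Polycomb proteins keep Hox genes off, and Trithorax proteins keep them on. Of the 30 Polycomb genes tested, 0 passed for NR6A1, with a median log2 change of -0.01. At an unadjusted p under 0.05 by limma stood 1, Suz12, lower, beside 8.48% of all genes (5.01% lower). The most abundant were Rbbp7 (144 and 164 FPKM with vector, 137 and 158 with NR6A1), Rbbp4 (79.1 and 97.4 against 79.7 and 95.8), Phc2 (57.1 and 80.5 against 67.6 and 84.8) and Ezh2, the histone H3 methyltransferase (57.3 and 47.7 against 48.3 and 46.6). Of 14 Trithorax and other activating genes tested, 0 passed (0 at an unadjusted p under 0.05 by limma), with a median of -0.0019 and a range of -0.15 to 0.20. Dpy30 (96.5 and 122 against 102 and 114 FPKM), Psip1 (62.8 and 78.8 against 56.5 and 79.4), Smarca4 (50.0 and 60.7 against 61.0 and 65.6) and Ash2l (59.7 and 56.9 against 51.5 and 53.6) were the highest of them. Between clones 8 of the 30 Polycomb genes passed, beside 21.9% of all genes tested, higher in clone 12 for Phf19, Pcgf5, Phc2 and Scmh1 and lower for Ring1, Bmi1, Cbx6 and Kdm2b, and of the 14 activating genes Psip1 passed as higher and Dot1l as lower.

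Retinoic acid and the Cdx factors switch Hox genes on in the embryo. No library held more than 0.175 FPKM of Cdx1, and Cdx2 and Cdx4 were listed at 0 throughout, and the retinoic acid synthesis gene Aldh1a2 was listed at 0. Of the 7 members tested 0 passed for NR6A1, and their median log2 change was 0.25. At an unadjusted p under 0.05 by limma stood 2, both higher, beside 8.48% of all genes (3.47% higher). These were the receptor genes Rarg (47.2 and 54.9 FPKM with vector, 57.5 and 63.8 with NR6A1) and Rxra (21.8 and 16.1 against 27.6 and 18.5). Rxrb was at 26.9 and 38.4 against 32.7 and 36.6 FPKM, and Gdf11, the ligand that starts the use of posterior Hox genes in the tail bud, at 24.2 and 6.48 against 22.6 and 7.82 FPKM. Between clones Crabp2 passed as higher in clone 12 and Crabp1, Gdf11 and Rxra as lower (limma adjusted p 0.0142 to 0.0337), 4 of 7 beside 21.9% of all genes.

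Genes of limb type and limb mesenchyme were read as a further list. Which body site the cells came from was not tested. Pitx1, the hindlimb selector, was at 39.5 and 37.7 FPKM with vector against 44.0 and 44.5 FPKM with NR6A1. Tbx5, the forelimb selector, was at 0.00186 FPKM or less, and Tbx4, its hindlimb counterpart, at 0.0147 FPKM or less in every library. The limb mesenchyme genes Prrx2 (105 and 75.7 against 99.3 and 60.6 FPKM), Prrx1 (71.0 and 57.2 against 66.8 and 63.0) and Tbx15 (59.7 and 48.9 against 66.8 and 46.8) were the most abundant of the list. Of the 7 tested, 0 passed for NR6A1 (0 at an unadjusted p under 0.05 by limma). Shox2, Tbx18 and Prrx2 passed as lower in clone 12 (limma adjusted p 0.0226 to 0.0304). These were 3 of 7, beside 21.9% of all genes in either direction and 10.5% lower. Genes next to the clusters were also read: Skap2, beside cluster A, was at 28.7 and 28.4 against 28.7 and 29.6 FPKM, and Mtx2, beside cluster D, at 59.5 and 80.1 against 55.0 and 72.4 FPKM. Hibadh was at 41.2 and 32.8 against 30.9 and 30.3 FPKM and Cbx5 at 63.4 and 79.2 against 57.1 and 74.7 FPKM. Of the 7 neighbours tested, 0 passed for NR6A1 (0 at an unadjusted p under 0.05 by limma). Mtx2 and Cbx5 passed as higher in clone 12 (limma adjusted p 0.0346 and 0.0440). These were 2 of 7, beside 21.9% of all genes in either direction and 11.5% higher. Evx1 and Evx2, homeobox genes at the ends of clusters A and D, were at 0.00303 FPKM or less.

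**Figure D5:**
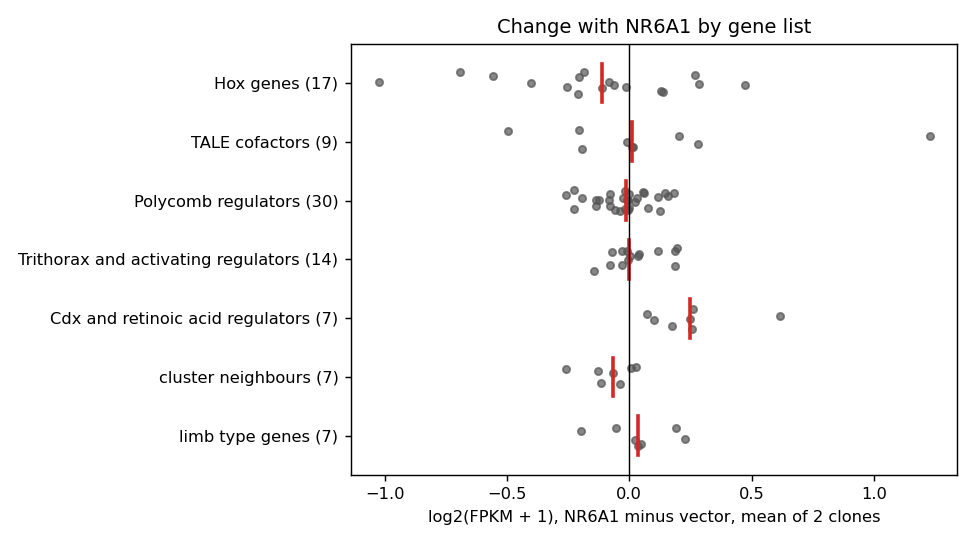
Difference of log2(FPKM + 1) between NR6A1 and vector, mean of both clones (x axis), for the tested genes of each list (y axis, number tested in brackets); each grey point is 1 gene, spread vertically only to separate points, and a red line is the list's median. The Hox genes spread from -1.02 to 0.47 around a median of -0.11, while the Polycomb and Trithorax genes lie within -0.26 and 0.20.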

How the data were processed

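mRNA of 4 libraries was measured. Per the labels' protocols, RNA passed a purification column and a DNase step before a standard Illumina library of polyadenylated RNA. The values the authors deposited are FPKM, 1 per gene symbol and library, for 21881 symbols. Cufflinks 1.0.3, TopHat 1.2.0 and the mouse build mm9 are named, per the submitters' processing notes; the annotation and the strand setting were not given in the sources used here. FPKM divides the reads of low and overlapping genes between models, so levels of neighbouring Hox genes are estimates.

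The 38 Hox genes of the list were read by symbol. The members and gene lists were chosen with earlier results of these data known. Genes averaging 1 FPKM or more, 11346 in number, entered a two-sided limma test (version 3.58.1, R 4.3.3) of log2(FPKM + 1). Virus and clone were the terms and the prior variance followed the mean. P-values were adjusted by Benjamini-Hochberg over the 11346 genes, and an adjusted p under 0.05 is said to pass the threshold. The clone pairs the libraries because each line received both viruses; the difference between clones correlated across genes between viruses with r = 0.628 (genes are not independent replicates). The fit left 1 residual degree of freedom and a prior of 2.9. An exact permutation test of 2 against 2 libraries cannot go below p = 0.333. The test was tried on simulated data for NR6A1 against vector, with gene variances drawn from the fitted prior. A first simulation drew them from the shrunken variances, gave more false calls than the limit set for it and was replaced. The second follows the model that limma assumes, so it cannot show whether calls at 1 residual degree of freedom are sound. The comparison between clones was not simulated.

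Named genes were all listed Hox genes, Nr6a1, and in each other list those past the threshold in either contrast and up to 4 of the highest mean FPKM, of which 1 is not reported here; Pknox1, Suz12, Tbx5, Tbx4, the Cdx genes, Evx1, Evx2, Aldh1a2, Thy1, Pparg, Krt14 and the other cell type markers in the text were picked with their values in view. Depth was inferred from 1747 genes with 1 annotated transcript, as the depth that best brought their low values onto whole reads. Of these values, 46.9% to 51.7% came within 0.1 of whole reads, so no count test was run. Chance gives 20% only for a depth fixed beforehand. The depth was picked on the same values, so this share does not check it, and numbers of reads are estimates. Alternatives were other pseudocounts (0.1, 5), other filters (none, 5 FPKM), scaling by the upper quartile or by quantiles, a constant or a robust prior variance, no clone block, leaving out 198 tested genes of short RNAs, dropping each library in turn, and a false discovery rate of 0.1.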

Additional observations from a re-analysis of the deposited data

Results flagged for a closer look

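Hoxc9 was the 1 tested Hox gene whose log2 change with NR6A1 went one way in clone 6 (-0.0899) and the other in clone 12 (0.0657). Between clones, 5 of the 17 tested Hox genes differed one way with vector and the other with NR6A1. For Hoxc10 the log2 difference of clone 12 minus clone 6 was -0.519 with vector and 0.0328 with NR6A1, for Hoxa13 -0.382 and 0.0238, for Hoxa6 -0.274 and 0.0972, for Hoxa3 -0.0541 and 0.122, and for Hoxc4 -0.0610 and 0.0606. Each of these values is a difference of 2 libraries, so none of the differences was tested. In Hoxc10, Hoxa13 and Hoxa6 the vector library of clone 6 was the highest of the 4. Of the 11346 genes tested, 4661 had log2 changes with NR6A1 of opposite sign in the 2 clones. Differences between clones had opposite signs with the 2 viruses for 2232 of them.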

How the results depend on the processing

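The clone block was part of every fit with 4 libraries except 1: with no replicate block, 4 genes passed for NR6A1, 0 of them Hox genes, and 2 Hox genes (Hoxa3, Hoxc6) had an unadjusted p under 0.05; between clones 3 had, all 3 called. The pairing by clone comes from the treatment protocol, and the other calls on Hox genes were the same without it. For NR6A1, no Hox gene passed by limma under any of the 14 alternative settings or at a false discovery rate of 0.1. Genes passing over the whole table for NR6A1 numbered 4, and 7 with a pseudocount of 5, 0 with no filter, 38 with a robust prior, 52 without short RNA genes, 25 at a false discovery rate of 0.1 and 0 with any 1 library left out. Hox genes with an unadjusted p under 0.05 by limma for NR6A1 numbered 5, and 3 with a filter at 5 FPKM (fewer genes tested). With no variance trend they numbered 6, Hoxa2 being added. With no filter they were again 5, but Hoxa2 and Hoxc5 stood in place of Hoxa7 and Hoxc10. They were fewer with any 1 library left out. Those lower in both clones numbered 11, or 5 with the filter at 5 FPKM. The median change of the Hox genes for NR6A1 was -0.010 with no filter (which adds the genes near 0), -0.038 with a filter at 5 FPKM, and -0.23 to -0.07 with a library left out.

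Between clones, 2490 genes passed over the table, 0 with no filter, 1581 with no variance trend, 4163 at a false discovery rate of 0.1 and 41 to 889 with a library left out. Of these, 3 were Hox genes, 0 with no filter and 0 to 0 with a library left out, where 3 to 6 had an unadjusted p under 0.05. The median difference was -0.00012 with no filter, which takes in all 38 Hox genes, most of the added ones near 0. It was -0.24 with a filter at 5 FPKM, which leaves 10, and -0.21 to 0.10 with a library left out. How far the change of gene set moved the median was not tested. Hoxc4 turned to 0.0013 between clones with a pseudocount of 0.1. No other of the 326 single-gene values with 4 libraries changed direction.

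With a library left out the block is lost, so a clone difference enters the change with NR6A1 and the reverse. For NR6A1 the log2 change then ran from -0.069 to 0.33 for Hoxa4, -0.42 to 0.29 for Hoxa10, -0.36 to 0.20 for Hoxa11, -0.15 to 0.12 for Hoxc9, -0.29 to 0.071 for Hoxc11, -0.0039 to 0.58 for Hoxc12 and -0.20 to 0.48 for Hoxc13. Between clones it ran from -0.31 to 0.11 for Hoxa2, -0.36 to 0.42 for Hoxa3, -0.21 to 0.030 for Hoxa5, -0.31 to 0.13 for Hoxa6, -0.079 to 0.53 for Hoxa7, -0.39 to 0.028 for Hoxa13, -0.13 to 0.13 for Hoxc4, -0.25 to 0.88 for Hoxc6 and -0.66 to 0.17 for Hoxc10. Depth limits clusters B and D, where a value below about 3 reads cannot be told from 0.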
